A study of Mus musculus with 13 samples.

Results

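This account follows 9 genes whose products carry, or help to carry, lactate, glucose and fructose across cell membranes in the testis, out of 25965 genes in the deposited table. They were chosen by name as the monocarboxylate and glucose transporters and their membrane chaperones, by a rule that uses no measured value, though with earlier results of these data known. The lactate carriers are Slc16a1, Slc16a3 and Slc16a7, the chaperones are Bsg and Emb, and the hexose carriers are Slc2a1, Slc2a3, Slc2a5 and Slc2a8. All 9 were in the table and all 9 passed the filter on low values, an average of 1 RPM or more over the libraries, where RPM are reads scaled to a common library total.

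RNA of whole testes of mice aged 15 weeks was sequenced in 13 libraries, after the tunica albuginea had been taken off. By the labels, 6 libraries are Wfdc15a-/- (KO), 4 are Wfdc15a+/- (Het) and 3 are WT, and the study's design pools Het and WT as 7 controls to ask what Wfdc15a does in spermatogenesis. The design of the knockout allele, the strain and the litters are not stated in the labels. Titles also carry a number of unstated meaning, called the title number here: it is 1 for KO replicates 1 to 3 and Het replicate 1, and 2 for KO replicates 4 to 6, Het replicates 2 to 4 and all WT replicates. The depth behind the values was 4.51 to 11.1 M reads per library, so 1 read was worth 0.0899 to 0.222 RPM.

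In the testis, Sertoli cells take up glucose and turn much of it into lactate, which they pass to the germ cells they nurse. Spermatocytes and spermatids behind the blood-testis barrier are known to depend on that lactate as fuel. Lactate crosses membranes through monocarboxylate transporters, which need a chaperone of the basigin family to reach the cell surface, and glucose and fructose cross through carriers of the Slc2a family. Slc16a3 (MCT4) has a low affinity for lactate and is the carrier usually given the role of export, whereas Slc16a1 (MCT1) and Slc16a7 (MCT2) have higher affinities and are usually given the role of uptake. Bsg (basigin) accompanies MCT1 and MCT4, and Emb (embigin) is the usual partner of MCT2.

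Wfdc15a itself was measured at 31.5, 19.4 and 33.4 RPM in KO replicates 1 to 3 and at 54.1, 48.1 and 81.3 RPM in KO replicates 4 to 6, against 53.5 to 85.8 RPM in the controls. Its log2 difference from the controls was -0.66 over all KO libraries (limma adjusted p = 0.0348), -1.21 for the KO libraries of title number 1 (limma adjusted p = 0.00018) and -0.11 for those of number 2 (adjusted p = 0.746). Its level thus separates the KO libraries of number 1 from the controls but not those of number 2, so KO means labelled KO throughout, and results are also given for each title number.

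Of the 9 genes, 3 rose in the KO libraries against the controls: Slc16a1, Emb and Slc2a1. None of the 9 fell, and Slc16a3, Slc16a7, Bsg, Slc2a3, Slc2a5 and Slc2a8 did not pass the test. Over all 16235 genes tested, 18.4% rose and 6.18% fell by the same rule. No test of the count itself was made, and it says nothing particular about these genes. Their median log2 difference was 0.04, beside 0.16 over all genes tested. In whole-testis RNA, fewer cells of a type and less RNA per cell cannot be told apart.

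The promoters of the 3 genes that rose are shown beside that of Slc16a3, the lactate exporter, because Slc2a1 and Slc16a3 are textbook targets of hypoxia-inducible factor and Hif1a, which codes for its alpha subunit, is among the pathway genes described here. Each runs from 250 bases before to 50 bases after the start of transcription, from RefSeq on GRCm38.p6, and capitals mark ACGTG or GCGTG on either strand, the core of a hypoxia response element, with overlapping matches joined.
Slc16a1 promoter, chr3:104638414-104638713, plus strand: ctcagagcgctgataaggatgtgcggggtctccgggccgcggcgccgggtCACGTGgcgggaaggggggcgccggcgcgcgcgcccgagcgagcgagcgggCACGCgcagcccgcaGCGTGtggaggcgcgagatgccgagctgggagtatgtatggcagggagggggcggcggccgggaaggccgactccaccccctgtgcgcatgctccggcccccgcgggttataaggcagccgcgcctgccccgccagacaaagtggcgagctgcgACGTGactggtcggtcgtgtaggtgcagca
Emb promoter, chr13:117220323-117220622, plus strand: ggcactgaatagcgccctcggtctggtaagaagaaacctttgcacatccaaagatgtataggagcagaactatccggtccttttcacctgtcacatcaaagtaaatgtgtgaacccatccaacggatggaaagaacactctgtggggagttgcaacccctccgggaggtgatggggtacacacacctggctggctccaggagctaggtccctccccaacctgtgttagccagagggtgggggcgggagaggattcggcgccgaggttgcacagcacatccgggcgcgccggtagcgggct
Slc2a1 promoter, chr4:119108495-119108794, plus strand: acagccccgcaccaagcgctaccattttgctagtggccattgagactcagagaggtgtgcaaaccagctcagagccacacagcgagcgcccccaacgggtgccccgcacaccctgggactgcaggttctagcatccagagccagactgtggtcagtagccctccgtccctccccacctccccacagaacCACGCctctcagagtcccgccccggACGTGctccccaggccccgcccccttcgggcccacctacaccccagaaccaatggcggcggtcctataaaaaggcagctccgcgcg
Slc16a3 promoter, chr11:120948817-120949116, plus strand: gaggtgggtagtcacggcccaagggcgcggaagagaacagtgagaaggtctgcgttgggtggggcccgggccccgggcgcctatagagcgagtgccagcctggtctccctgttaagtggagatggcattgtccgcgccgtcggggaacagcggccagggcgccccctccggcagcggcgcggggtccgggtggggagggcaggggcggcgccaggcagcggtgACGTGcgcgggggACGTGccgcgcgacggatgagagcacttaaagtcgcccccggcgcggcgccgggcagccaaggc
The Slc16a1 promoter held 5 such matches, of which a pair are the opposite strands of a single CACGTG. The promoters of Slc2a1 and Slc16a3 held 2 each, that of Slc2a8 held 1, and those of Emb and Slc2a5 held 0. Of 32851 mouse promoters of the same length 43.8% held at least 1. The GC box GGGCGG, searched on both strands, was present in 5 of the 6 member promoters that the RefSeq table holds, all but that of Slc2a8, and in 35.7% of all promoters. TATAAA was found only in Slc2a1 among the 6, where it begins after the start of transcription, and TGACGTCA in none of them. The Slc16a1 window was 73.7% G and C with 42 CpG dinucleotides, the Slc16a3 window 73.3% with 36, the Slc2a1 window 65.3% with 18 and the Emb window 57.7% with 14, against medians of 52.7% and 7 over all promoters. These matches are letters in a window and do not show that a factor was bound. Sites outside the window were not searched, and the shares over all promoters were not matched for G and C content. The RefSeq start of Slc16a3 lies inside the span that the deposited table gives the gene.

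The lactate carrier that differed was Slc16a1, on chromosome 3 of mm10 from 104638668 to 104658462. It stood at 64.5, 74.4, 64.6, 63.1, 72.6 and 62.8 RPM in KO replicates 1 to 6, against 29.2, 31.8, 48.0 and 36.2 RPM in Het replicates 1 to 4 and 34.3, 43.1 and 59.3 RPM in WT replicates 1 to 3. Every KO library lay above every control, and the KO libraries were closer to each other than the controls were. Over all genes tested, 5.06% showed a complete separation of this kind. The mean was 67.0 ± 5.12 RPM in KO (SD, n = 6) and 40.3 ± 10.6 RPM in controls (n = 7), a log2 difference of 0.76 (SE 0.140, 95% interval 0.46 to 1.05, limma adjusted p = 0.000539). Between 215 and 599 reads per library lie behind these values.

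Slc16a3, on chromosome 11 from 120948480 to 120960868, was the least abundant of the lactate carriers. It stood at 14.9, 23.9, 16.0, 31.7, 14.3 and 18.4 RPM in KO replicates 1 to 6, against 14.9, 12.8, 14.3 and 12.1 RPM in Het replicates 1 to 4 and 15.5, 26.0 and 11.5 RPM in WT replicates 1 to 3. The groups overlapped throughout, and KO replicate 4 and WT replicate 2 were the highest of their groups. The log2 difference of 0.34 (SE 0.205) did not pass the test (95% interval -0.08 to 0.77, adjusted p = 0.231). An interval that reaches 0.77 does not show that Slc16a3 was the same in both groups. At 72 to 194 reads per library the gene was among the thinly counted members.

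Slc16a7, on chromosome 10 from 125226464 to 125328963, was the lactate carrier with the most reads. It stood at 757, 670.1, 730.2, 715 and 771 RPM in KO replicates 1 to 5 and 569 RPM in KO replicate 6, against 751, 584, 756 and 914 RPM in Het replicates 1 to 4 and 562, 699.6 and 741 RPM in WT replicates 1 to 3. All KO libraries lay within the range of the controls. The log2 difference was -0.02 (SE 0.099, 95% interval -0.22 to 0.19, adjusted p = 0.923).

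The chaperones moved apart. Emb, on chromosome 13 from 117220625 to 117274098, stood at 69.5, 84.5, 97.0, 43.2, 63.3 and 42.5 RPM in KO replicates 1 to 6, against 31.7, 35.8, 19.1 and 26.3 RPM in Het replicates 1 to 4 and 26.5, 35.8 and 44.1 RPM in WT replicates 1 to 3. The KO libraries of title number 1 were the highest, and KO replicates 4 and 6 lay within the control range, below WT replicate 3. Emb averaged 66.7 ± 21.9 RPM in KO (SD, n = 6) and 31.3 ± 8.17 RPM in controls (n = 7), a log2 difference of 1.04 (SE 0.196, 95% interval 0.63 to 1.45, adjusted p = 0.000644). In the table the first bases of Emb overlap Gm17509 on the opposite strand by 451 bases, and Gm17509 ranged over 3.79 to 8.18 RPM in KO and 1.51 to 5.32 RPM in controls. No source used here names the counting strand, so reads of the overlap cannot be assigned to either gene with certainty.

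Bsg, on chromosome 10 from 79704491 to 79711969, is the chaperone whose loss makes male mice infertile. It stood at 433, 439, 409, 384, 418 and 446 RPM in KO replicates 1 to 6, against 409, 438, 389 and 376 RPM in Het replicates 1 to 4 and 458, 404 and 392 RPM in WT replicates 1 to 3. The groups overlapped over nearly their whole range. The log2 difference of 0.04 had a 95% interval of -0.10 to 0.18 (SE 0.067, adjusted p = 0.683), so at these values a difference of the size seen for Emb lies outside the interval.

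Among the hexose carriers only Slc2a1, the widespread basal glucose carrier GLUT1, passed the test. It lies on chromosome 4 from 119108711 to 119137330. It stood at 17.1, 28.7, 16.5, 15.7, 17.9 and 14.8 RPM in KO replicates 1 to 6, against 5.05, 7.37, 9.77 and 11.6 RPM in Het replicates 1 to 4 and 10.4, 12.1 and 7.84 RPM in WT replicates 1 to 3. Every KO library lay above every control, and KO replicate 2 stood above the other KO libraries. The mean was 18.5 ± 5.13 RPM in KO (SD, n = 6) and 9.16 ± 2.53 RPM in controls (n = 7), a log2 difference of 0.95 (SE 0.203, 95% interval 0.52 to 1.37, adjusted p = 0.0019). Slc2a1 rests on 40 to 231 reads per library. Gm12868, annotated on the opposite strand, overlaps its 3′ part by 3582 bases and ranged over 6.66 to 13.8 RPM in KO and 2.66 to 6.57 RPM in controls, and reads of the overlap cannot be assigned with certainty.

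Slc2a3, on chromosome 6 from 122727809 to 122801640, codes for the high-affinity glucose carrier GLUT3 and had the most reads of the hexose carriers. It stood at 1045, 917, 1194, 1250, 1180 and 1601 RPM in KO replicates 1 to 6, against 1178, 1024, 1159 and 1241 RPM in Het replicates 1 to 4 and 1189, 1166 and 1096 RPM in WT replicates 1 to 3. The KO libraries spread to both sides of the controls, with KO replicate 2 the lowest and KO replicate 6 the highest of all libraries. The log2 difference was 0.04 (SE 0.093, 95% interval -0.15 to 0.23, adjusted p = 0.800). Gm4482, on the same strand inside its span, was at 1.99 RPM or less in every library.

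Slc2a5, on chromosome 4 from 150119283 to 150144169, codes for the fructose carrier GLUT5. It stood at 513, 559, 546, 648, 637 and 828 RPM in KO replicates 1 to 6, against 637, 649, 686 and 687 RPM in Het replicates 1 to 4 and 697, 682 and 610.0 RPM in WT replicates 1 to 3. The KO libraries of title number 1 all lay below the controls, and KO replicate 6 lay above them. Over all 6 KO libraries the log2 difference was -0.11 (SE 0.089, 95% interval -0.30 to 0.07, adjusted p = 0.382). Without KO replicate 6 it was -0.20 and passed the test (adjusted p = 0.0428).

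Slc2a8, on chromosome 2 from 32972990 to 32982083, codes for GLUT8, a carrier that sits largely on inner membranes. It stood at 55.6, 65.7, 82.8, 54.7, 80.9 and 119 RPM in KO replicates 1 to 6, against 70.1, 81.4, 80.4 and 72.1 RPM in Het replicates 1 to 4 and 92.9, 85.8 and 78.7 RPM in WT replicates 1 to 3. KO replicate 6 was again the highest library, and the other KO libraries lay within or below the control range. The log2 difference was -0.12 (SE 0.144, 95% interval -0.41 to 0.18, adjusted p = 0.599).

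**Figure D1:**
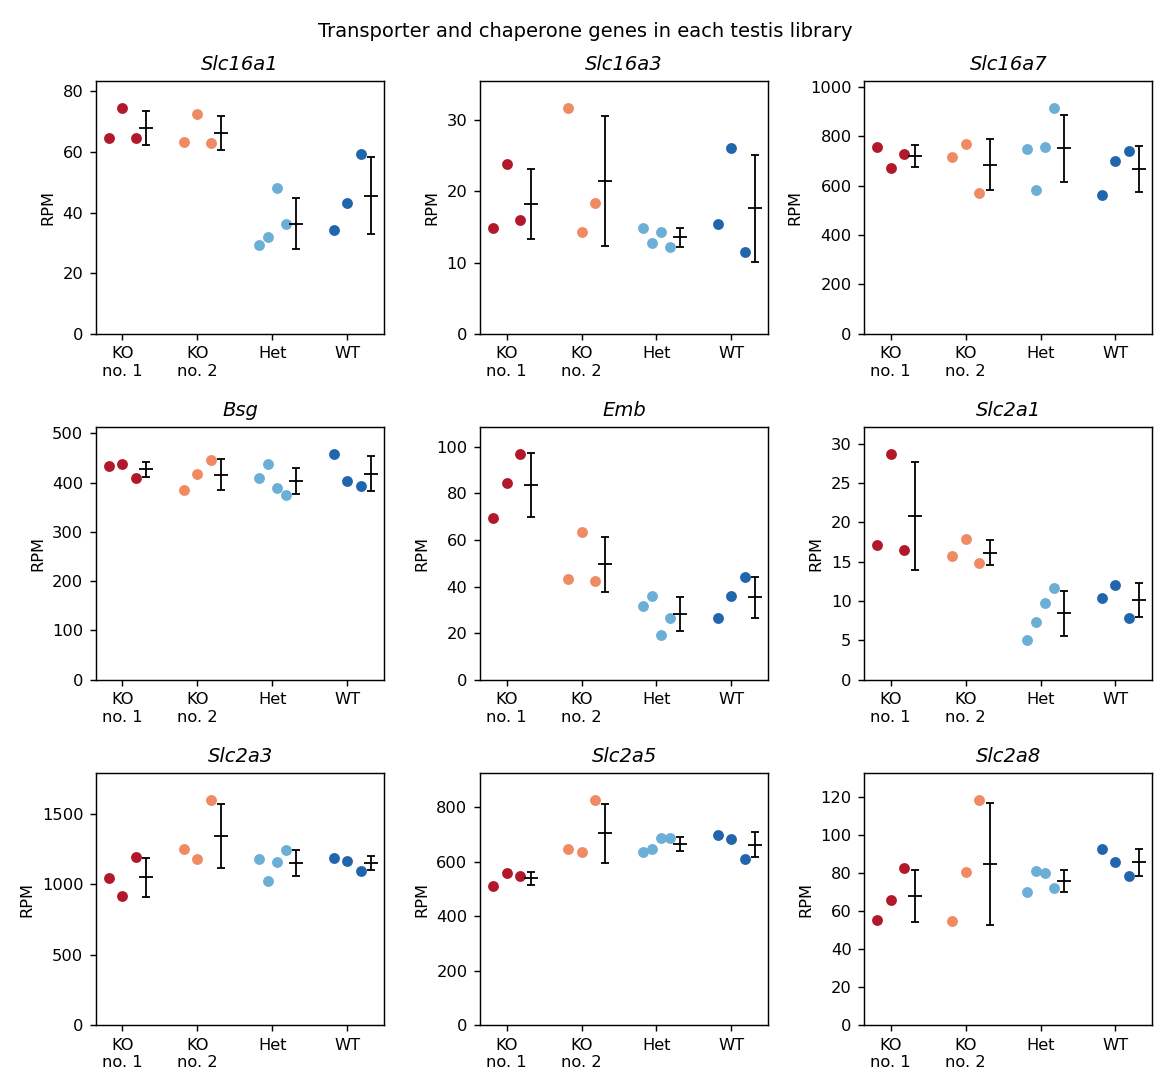
RPM of each of the 9 genes in each library, with KO libraries of title number 1 and number 2 left of Het and WT libraries. Points are libraries and bars the mean ± SD of each of the 4 groups. All KO points of Slc16a1 and Slc2a1 lie above all Het and WT points, whereas those of Bsg, Slc16a7 and Slc16a3 overlap them.

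The scaling of the libraries bears on these calls, since the median gene was 0.16 higher in KO on the log2 scale in the deposited scaling. With median-of-ratios scaling that median was 0.02, and 1711 genes rose and 1716 fell, a share of 49.9% higher, against 2994 and 1003, a share of 74.9% higher, in the deposited scaling. Slc16a1 (0.61, adjusted p = 0.00319), Emb (0.89, adjusted p = 0.00214) and Slc2a1 (0.81, adjusted p = 0.00638) still rose under median-of-ratios scaling. Slc2a5 then fell (-0.26, adjusted p = 0.0381). Quantile normalization, with an all-gene median of -0.01, also left Slc16a1, Emb and Slc2a1 as calls, at 0.60, 0.88 and 0.67. The signs of the small differences of Bsg, Slc16a7, Slc2a3 and Slc2a5 changed with the scaling.

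Split by title number, Slc16a1 differed from the 7 controls by nearly the same amount in both sets of KO libraries. Its log2 difference was 0.77 (SE 0.167, adjusted p = 0.00236) for number 1 and 0.74 (SE 0.167, adjusted p = 0.00559) for number 2. Slc2a1 rose by 1.10 (SE 0.248, adjusted p = 0.0033) for number 1 and by 0.79 (SE 0.248, adjusted p = 0.0394) for number 2. Emb rose by 1.42 (SE 0.194, adjusted p = 4.24e-05) for number 1 and by 0.67 (SE 0.194, adjusted p = 0.0275) for number 2. In the deposited scaling the 3 genes were thus called in each set of KO libraries, where 17.4% of all genes rose for number 1 and 8.48% for number 2. Median-of-ratios scaling also called Slc2a3 for number 1, where it fell (-0.29, adjusted p = 0.0402). For number 1 the calls of Slc16a1, Emb and Slc2a1 held under median-of-ratios and quantile scaling. For number 2 Emb and Slc2a1 lost their calls under both: median-of-ratios scaling gave an adjusted p of 0.0995 for Emb and 0.106 for Slc2a1, and quantile normalization 0.119 and 0.189. Slc16a1 held for number 2 under both (adjusted p = 0.0268 and 0.0252 in that order), and quantile normalization called Slc2a3 there instead (0.35, adjusted p = 0.0273). Over all genes 1376 rose and 761 fell for number 2 in the deposited scaling and 596 rose and 1104 fell with median-of-ratios scaling. For number 1 these counts were 2820 and 938 in the deposited scaling and 1902 and 1763 with median-of-ratios scaling. Both comparisons share the 7 controls.

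Slc2a5 was the 1 member that fell for title number 1, where 5.78% of all genes fell. It averaged 539 ± 23.7 RPM in KO libraries of number 1 (SD, n = 3) and 664 ± 32.5 RPM in controls (n = 7), a log2 difference of -0.30 (SE 0.087, adjusted p = 0.0175). That call was lost without KO replicate 1, without KO replicate 3 and with quantile normalization. With median-of-ratios scaling the difference was larger (-0.45, adjusted p = 0.00102). No member fell for number 2, where 4.69% of all genes fell. KO libraries of number 2 held 704 ± 107 RPM of Slc2a5 (n = 3), a difference of 0.08 from the controls (adjusted p = 0.613).

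Set directly against each other, the KO libraries of number 2 and number 1 gave no call among the 9 genes with limma on log2 values or with limma-voom, while 3 members had an unadjusted p under 0.05. These were Emb, lower in number 2 by a log2 difference of -0.75 (adjusted p = 0.171), Slc2a5 at 0.37 (adjusted p = 0.123) and Slc2a3 at 0.35 (adjusted p = 0.206). Over all genes 0.345% were called in that comparison. A test on title number 2 alone, 3 KO against 6 control libraries, left Slc16a1 called (0.67, adjusted p = 0.0249), while Emb (0.67, adjusted p = 0.0631) and Slc2a1 (0.68, adjusted p = 0.0650) did not pass. In that test 5.36% of all genes rose and 3.97% fell. With number 2 alone and median-of-ratios scaling, a combination chosen after seeing the data, Slc16a1 was at 0.52 and did not pass either (adjusted p = 0.0871). With title number as a covariate over all 13 libraries, Slc16a1 (0.81, adjusted p = 0.000659), Emb (0.86, adjusted p = 0.00258) and Slc2a1 (0.98, adjusted p = 0.00341) rose. Title number 1 holds a single control, Het replicate 1, too few for a test within that number.

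**Figure D2:**
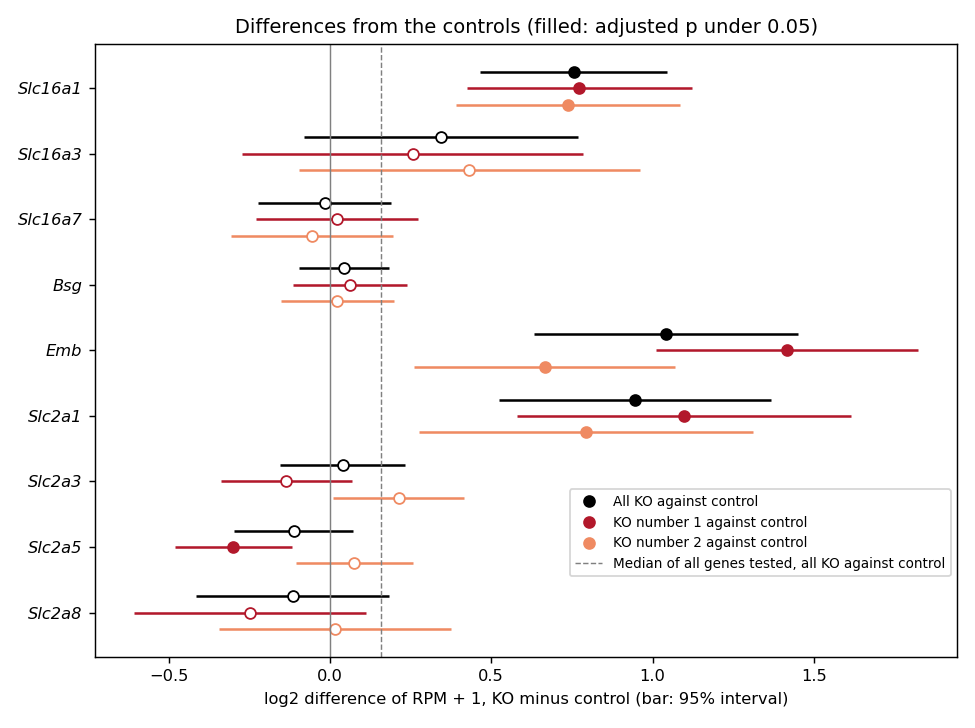
Log2 difference of RPM + 1 from the 7 controls for each gene, over all KO libraries (top point of each trio), those of title number 1 and those of number 2, with 95% intervals. Filled points passed the test at an adjusted p under 0.05, and the dashed line is the median of all genes tested, 0.16. Slc16a1, Emb and Slc2a1 are filled in each set, and Slc2a5 only for number 1.

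Het and WT libraries, which together form the control group, were compared to see how alike they were. No member was called, none had an unadjusted p under 0.05, and limma-voom called none. Among all genes 0% were called. The smallest adjusted p among the members was 0.916. The 3 called genes were nevertheless lower in Het than in WT by point estimate, Slc16a1 at -0.31, Emb at -0.33 and Slc2a1 at -0.27. Set against Het alone, where 16.9% of all genes rose, KO libraries showed higher Slc16a1 (0.89), Emb (1.18) and Slc2a1 (1.06), all 3 called. Set against WT alone, where 6.05% rose, Slc16a1 (0.58, adjusted p = 0.0363) and Emb (0.85, adjusted p = 0.0328) were called and Slc2a1 was not (0.79, adjusted p = 0.0575). The calls against Het held under both other scalings. Against WT no member was called under either: Slc16a1 was at 0.45 (adjusted p = 0.111) and Emb at 0.73 (adjusted p = 0.0723) with median-of-ratios scaling, and their adjusted p was 0.109 and 0.0840 with quantile normalization. Over all genes 982 rose and 543 fell against WT in the deposited scaling and 444 rose and 795 fell with median-of-ratios scaling. Against Het these counts were 2748 and 836 in the deposited scaling and 1633 and 1543 with median-of-ratios scaling. These comparisons share the KO libraries.

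Ratios within a library do not depend on its scaling apart from the pseudocount of 1 RPM. Of these, 4 were tested with an exact permutation test (two-sided, 1716 arrangements), with p-values adjusted over the 4. Each holds Slc16a1, Slc2a1 or Emb, called above in the same libraries, so these tests are not independent of those calls. The ratio of MCT2 to MCT1 message, Slc16a7 to Slc16a1, spanned 8.90 to 11.6 in KO libraries and 12.3 to 24.9 in controls. All 6 KO libraries lay below all controls, with log2 means of 3.37 ± 0.169 in KO (SD, n = 6) and 4.14 ± 0.372 in controls (n = 7), a difference of -0.77 (adjusted exact p = 0.00311). The ratio of Slc2a3 to Slc2a1 spanned 30.9 to 101 in KO and 89.3 to 195 in controls, with 5 of 6 KO libraries below all controls. The log2 difference was -0.91 (adjusted exact p = 0.00311). With only WT as control it was -0.76 and did not pass (exact p = 0.0714), and within title number 2 it was -0.46 (exact p = 0.0357).

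The ratio of Emb to Bsg, the chaperones, was 0.0973 to 0.239 in KO and 0.0516 to 0.115 in controls, with 5 of 6 KO libraries above all controls. Its log2 difference was 0.999 (adjusted exact p = 0.00311), and within title number 2 it was 0.65 (exact p = 0.0595). The ratio of Slc16a3 to Slc16a1, the low-affinity to the high-affinity lactate carrier, overlapped between the groups at 0.208 to 0.510 in KO and 0.207 to 0.613 in controls. Its log2 difference of -0.41 did not pass (adjusted exact p = 0.160).

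**Figure D3:**
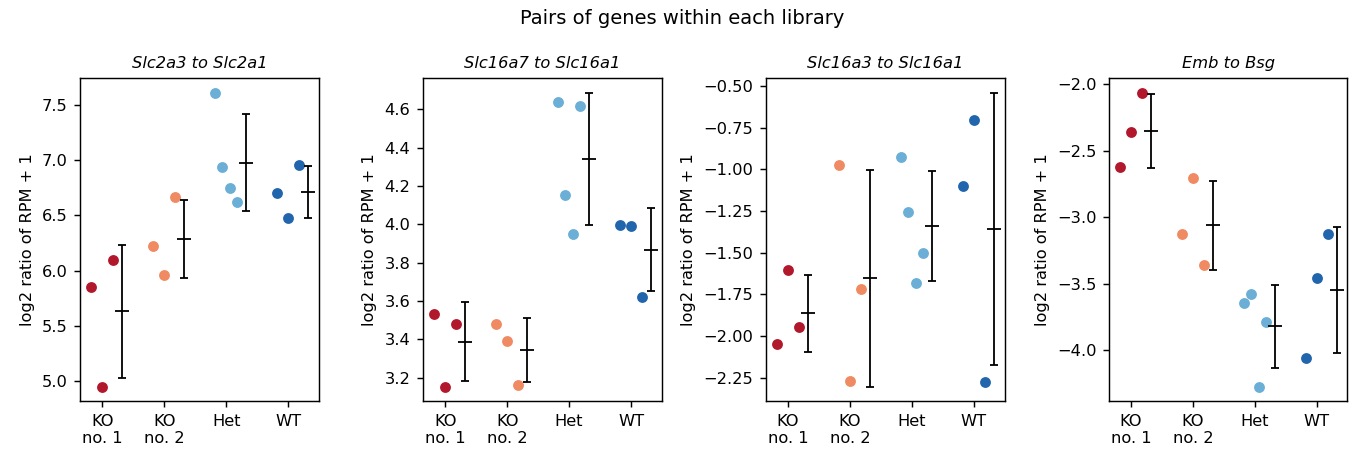
Log2 ratio of RPM + 1 for 4 pairs of genes in each library, with KO libraries of title number 1 and number 2 left of Het and WT. Bars are the mean ± SD of each of the 4 groups. The 6 KO points of Slc16a7 to Slc16a1 lie below all 7 controls, while the points of Slc16a3 to Slc16a1 overlap.

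Levels of different genes were compared per kilobase of exon inside the span that the table gives each gene, with exons of GENCODE release M21. Bsg came first at 232 ± 12.4 RPM per kb in KO (SD, n = 6) and 226 ± 16.0 RPM per kb in controls (n = 7). Slc2a5 (183 in KO and 195 in controls), Slc16a7 (177 and 180.1) and Slc2a3 (165 and 159 RPM per kb) followed. The ranges of neighbours among these 3 overlapped in both groups, and Bsg overlapped Slc2a5 in KO but not in controls. Slc2a8 stood far below them at 17.1 to 37.0 RPM per kb in KO and 21.8 to 28.9 RPM per kb in controls. At the low end were Slc16a1 (15.1 in KO and 9.10 in controls), Emb (11.2 and 5.27), Slc2a1 (6.47 and 3.21) and Slc16a3 (3.73 and 2.88 RPM per kb), and neighbours among these overlapped in each group. The order of the means was the same in KO and in controls. The 3 genes that rose were thus 3 of the 4 lowest. The annotation gives Slc16a7 11839 exon bases in all, against 3971 inside the table's span, so its place depends on the gene model.

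Genes with the most similar pattern over the 13 libraries were sought for each of the 3 called members, among 10678 genes averaging 5 RPM or more, by the root-mean-square difference of log2(RPM + 1) after each gene's control mean was taken away. For Slc16a1 these were Tmem35 (0.138), Golt1b (0.165) and Gpd1 (0.172). For Emb they were Litaf (0.187), Calu (0.194) and Cldn11 (0.20), a tight-junction gene of Sertoli cells. For Slc2a1 they included Soat1 (0.239) and Oxa1l (0.241). All the genes named here as neighbours rose in KO, and since the search favours such genes their calls are not independent of it.

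Other carriers of monocarboxylates and sugars, not all of them of the Slc16a and Slc2a families, were read from lists. Of 13 further monocarboxylate transporters 10 could be tested, and 4 rose and none fell, with a median log2 difference of 0.59 beside 0.16 over all genes. In the same comparison 18.4% of all genes rose and 6.18% fell, and no list count was tested. Slc16a6, at 12.1 ± 3.89 RPM in KO and 6.02 ± 1.54 RPM in controls, rose by 0.88 (adjusted p = 0.00517). Slc16a11 had 4.66 ± 1.64 RPM in KO and 1.59 ± 1.03 RPM in controls (1.16, adjusted p = 0.004), and Slc16a13 had 13.6 ± 7.32 RPM in KO and 3.82 ± 2.23 RPM in controls (1.53, adjusted p = 0.0028). Under quantile normalization Slc16a6 did not pass (0.59, adjusted p = 0.0536). Of 12 further sugar transporters 6 could be tested and none was called, with a median of 0.28. Limma-voom also called none of these, and 1, Slc5a10, had an unadjusted p under 0.05 (0.90, adjusted p = 0.0637).

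Of the relatives and partners of basigin, Nptn (neuroplastin) rose, at 40.1 to 86.5 RPM in KO and 34.3 to 46.1 RPM in controls (0.52, adjusted p = 0.0181). That call was lost under median-of-ratios scaling (0.37, adjusted p = 0.0911). Xkr8, a scramblase that pairs with basigin, was at -0.01, and Ppia, the cyclophilin that binds it, was at 0.07, and neither passed. Ppia has many processed copies in the genome, among which reads may be split.

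Among 15 tested genes of lactate and pyruvate conversion 4 rose and 1 fell, where 18.4% of all genes rose and 6.18% fell. Ldhc, the lactate dehydrogenase of germ cells, was by far the most abundant at 5948 ± 312 RPM in KO and 6287 ± 354 RPM in controls, and its difference of -0.08 did not pass (adjusted p = 0.307). Under median-of-ratios scaling it fell, at -0.23 (adjusted p = 0.0104). Ldha, which has processed copies of its own, was at -0.01 (adjusted p = 0.945). Ldhb, the subunit that favours lactate oxidation, rose to 151 ± 23.4 RPM in KO, against 99.4 ± 14.8 RPM in controls (0.60, adjusted p = 0.000585). Ldhd, which acts on D-lactate, stood at 25.9 ± 7.24 RPM in KO and 9.66 ± 5.74 RPM in controls, a rise of 1.47 (adjusted p = 0.0008).

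Pyruvate dehydrogenase showed a contrast between its alpha subunits. The X-linked somatic Pdha1 rose by 1.02, with 13.9 ± 3.20 RPM in KO and 6.54 ± 2.29 RPM in controls (adjusted p = 0.00228), while the germ-cell copy Pdha2, at 242 ± 12.7 RPM in KO and 227 ± 20.4 RPM in controls, did not pass (0.10, adjusted p = 0.380). Pdk1, a kinase that inhibits the complex, rose by 0.76 (adjusted p = 0.0104), a call lost under quantile normalization (0.50, adjusted p = 0.0876). Mpc2, a subunit of the mitochondrial pyruvate carrier, fell to 211 ± 17.5 RPM in KO, against 249 ± 26.0 RPM in controls (-0.23, adjusted p = 0.0418), a call also lost under quantile normalization (-0.18, adjusted p = 0.151).

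The step after sugar entry moved in both directions: of 9 tested genes of hexose trapping and fructose use, 3 rose and 3 fell, with a median of -0.35. Over all genes 18.4% rose and 6.18% fell. Hk1, the main hexokinase message here, fell to 925 ± 124 RPM in KO, against 1490 ± 125 RPM in controls (-0.69, adjusted p = 7.22e-06). Gpi1, the isomerase of the next step, fell to 299 ± 38.5 RPM in KO, against 476 ± 30.3 RPM in controls (-0.68, adjusted p = 1.05e-05). For both genes every KO library lay below every control, as for 2.89% of all genes tested. Hk2, a hexokinase of much lower level, rose by 0.57 (adjusted p = 0.0359), a call lost under median-of-ratios scaling (0.42, adjusted p = 0.119).

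The fructose genes split as well. Sord, which makes fructose from sorbitol, fell by 0.37 on the log2 scale (840 ± 45.2 RPM in KO and 1088 ± 128 RPM in controls, adjusted p = 0.0015). Akr1b3, the aldose reductase that makes sorbitol from glucose, rose by 0.49 (74.9 to 109 RPM in KO and 54.2 to 75.6 RPM in controls, adjusted p = 0.00222). Khk, the fructokinase, rose by 1.16, at 15.8 ± 4.75 RPM in KO and 6.47 ± 1.87 RPM in controls (adjusted p = 0.000703). Hk1, Gpi1 and Sord fell and Khk and Akr1b3 rose under median-of-ratios and quantile scaling too.

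Of 7 tested regulators of these carriers 1 rose and none fell, while 18.4% of all genes rose and 6.18% fell. Hif1a was at 45.4 ± 7.34 RPM in KO and 32.1 ± 9.14 RPM in controls (0.52, adjusted p = 0.0248), a call lost under median-of-ratios scaling (0.37, adjusted p = 0.115) and quantile normalization (0.33, adjusted p = 0.170). Txnip, a glucose-induced gene whose product removes GLUT1 from the cell surface, had 110 ± 40.8 RPM in KO and 93.3 ± 51.5 RPM in controls and did not pass (0.33, adjusted p = 0.377).

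Within title number 2 alone, 3 KO against 6 control libraries, fewer of all genes were called (5.36% rose and 3.97% fell). Of the lactate and pyruvate genes 2 of 15 rose, Ldhb (0.42, adjusted p = 0.0498) and Ldhd (1.62, adjusted p = 0.0113). Hk1 (-0.73), Gpi1 (-0.72) and Sord (-0.36) all fell there too, while Khk (0.71, adjusted p = 0.0715) and Akr1b3 (0.38, adjusted p = 0.0836) did not pass. With WT alone as control, 982 of all genes rose and 543 fell. There 1 of 10 further monocarboxylate transporters and 1 of 15 lactate and pyruvate genes rose and none fell. Of the 9 hexose and fructose genes 2 rose and 2 fell, and no regulator and no relative or partner of basigin was called.

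Markers of testis cell types moved with the same contrast, in which 18.4% of all genes rose and 6.18% fell. Of 16 Sertoli cell markers 12 rose and none fell (median 0.78), and their summed level was 3334 to 5106 RPM in KO and 1878 to 3129 RPM in controls. Sox9 was at 22.6 ± 4.44 RPM in KO and 11.4 ± 3.89 RPM in controls, and Wt1 at 53.2 ± 7.92 RPM in KO and 28.7 ± 4.80 RPM in controls. Of 8 Leydig cell markers 7 rose (sum 5655 to 9921 RPM in KO and 2351 to 4223 RPM in controls), and of 12 macrophage markers 9 rose (942 to 1157 RPM in KO and 839 to 1042 RPM in controls). None of these 3 lists had a marker at 0 in all libraries. All 9 elongating spermatid markers fell, with a median of -1.12 and a sum of 5661 to 8978 RPM in KO and 13645 to 18018 RPM in controls, and of 9 round spermatid markers none was called (median -0.06). Under median-of-ratios scaling, where 1716 of 16235 genes fell, 3 of the 9 round spermatid markers fell. Within title number 2 alone, where 5.36% of all genes rose and 3.97% fell, 3 of 16 Sertoli, 7 of 8 Leydig and 3 of 12 macrophage markers rose and 9 of 9 elongating spermatid markers fell. Against WT alone, where 6.05% of all genes rose, 7 of 16 Sertoli, 6 of 8 Leydig and 4 of 12 macrophage markers rose. All 9 elongating spermatid markers fell there too, where 543 of 16235 genes fell.

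Of the other lists, 1 of 6 peritubular markers rose and 1 fell, 2 of 8 endothelial and 2 of 8 spermatogonial markers rose, and 1 of 8 spermatocyte markers fell. In KO against control 18.4% of all genes rose and 6.18% fell. None of 2 tested red blood cell markers was called, and Hba-a2 is listed at 0 in all libraries.

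Relative to the mean level of the Sertoli list in each library, the difference between KO and controls was 0.03 for Slc16a1, 0.22 for Slc2a1 and 0.32 for Emb. It was -0.38 for Slc16a3, -0.68 for Bsg, -0.69 for Slc2a3, -0.74 for Slc16a7 and -0.84 for both Slc2a5 and Slc2a8. For Emb it was 0.60 in KO libraries of title number 1 and 0.04 in those of number 2. In the same order it was 0.28 and 0.16 for Slc2a1 and -0.05 and 0.11 for Slc16a1. Relative to the Leydig list the difference over all KO libraries was -0.30 for Slc16a1, -0.11 for Slc2a1 and -0.02 for Emb. For the other 6 it lay between -1.18 and -0.71. Relative to the elongating spermatid list, which was lower in KO, it was positive for every member, from 0.97 for Slc2a8 to 2.13 for Emb. The sign for Slc16a3, Slc16a7, Bsg, Slc2a3, Slc2a5 and Slc2a8 thus depended on the list chosen. These are descriptions without a test, and the part of cell numbers in the results was not tested.

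**Figure D4:**
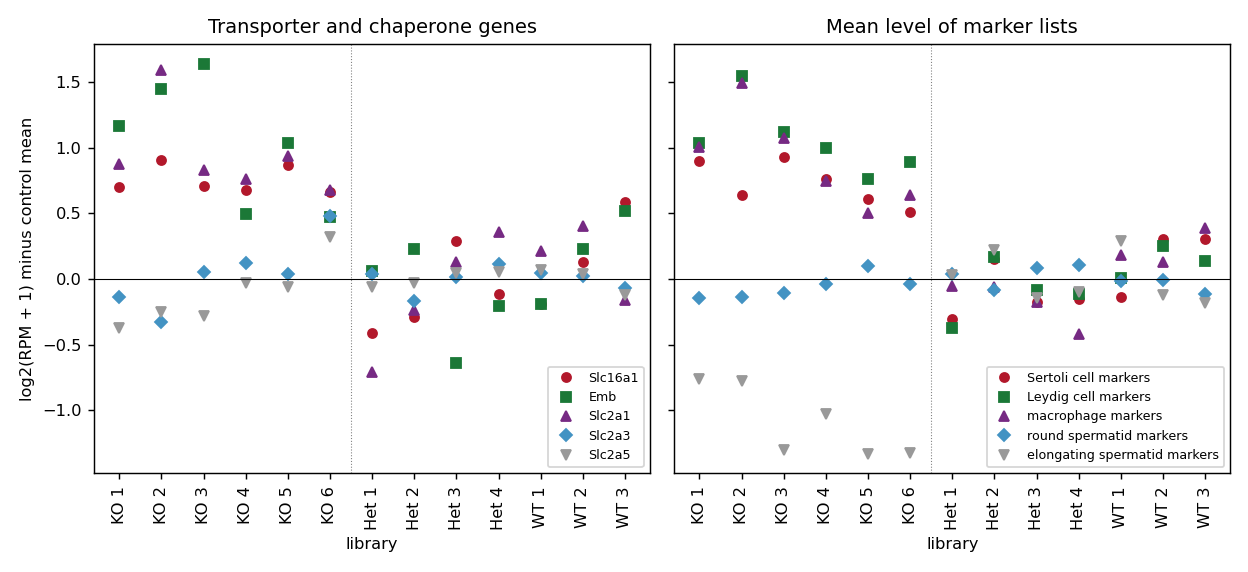
Level in each library on the log2(RPM + 1) scale minus the control mean, for 5 transporter and chaperone genes (left) and for the mean of 5 marker lists (right), with KO libraries left of the dotted line. Sertoli, Leydig and macrophage lists lie above all controls in all 6 KO libraries and the elongating spermatid list below them. Slc16a1 and Slc2a1 also lie above all controls in all 6 KO libraries.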

How the data were processed

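The authors deposited 1 table of log2 RPM values for 25965 genes in 13 whole-testis libraries. Per the labels, about 2 ng of RNA per library went through Smart-seq2 with 11 PCR cycles, and per the submitters' processing notes reads went through Trim Galore 0.6.6 and FastQC 0.11.8 and the build was mm10. No source used here names the aligner, counter, strand or annotation. Values were turned back into RPM and reads: the lowest value of a library equals 0.9 read and was set to 0, and at least 99.96% of the others were whole reads within 0.01. A pseudocount of 1 RPM was added. Low counts lose precision to counting error, and PCR copies cannot be told from molecules.

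Groups come from the labels, and Het and WT together are the controls. The design text counts mice, so each library was taken as 1 mouse. Limma 3.58.1 (R 4.3.3), with its trend option, was run on log2(RPM + 1) of 16235 genes averaging 1 RPM or more. Two-sided p-values were adjusted by Benjamini-Hochberg over all genes tested, with 0.05 as the threshold, and every adjusted p of a gene is from limma. As the unit is log2, limma-voom on recovered reads is an alternative. The main fit, but not limma-voom, was also run on simulated data. KO against control was a fit of 2 groups, comparisons with Het or WT a fit of 3 groups and comparisons by title number a fit of 4 groups. Alternatives were pseudocounts of 0.5 and 0.1 RPM, filters of 5 RPM and none, median-of-ratios and quantile scaling, voom, single libraries left out, replicate blocks, title number as covariate, title number 2 alone, and Het or WT alone as control.

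The 9 genes and all lists were chosen with earlier results of these data known. All members, Wfdc15a and all pathway genes could be named, along with the first 4 genes of each marker list and the 3 nearest profiles of each called member. Of 154 list genes 150 were in the table, 4 of them under older symbols; Ldhal6b, Mpc1l, Hbb-bs and Hbb-bt were not analysed here. Exon lengths were taken from GENCODE M21 and promoters from RefSeq GRCm38.p6, which held 6 of the 9 members. Some genes that meet the rule for names are not reported here.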

Additional observations from a re-analysis of the deposited data

Results flagged for a closer look

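Single libraries stood apart from the rest of their group in 3 of 39 groups of values examined, by the ratio of their gap to the group's range, and chance alone would give about 1 in 20. Slc2a1 in KO replicate 2 was at 28.7 RPM, while the other 5 KO libraries lay between 14.8 and 17.9 RPM. Slc16a3 in WT replicate 2 was at 26.0 RPM, while the other controls lay between 11.5 and 15.5 RPM. The log2 ratio of Slc2a3 to Slc2a1 was 7.61 in Het replicate 1, while the other controls lay between 6.48 and 6.96.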

How the results depend on the processing

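The count of 3 members that rose in KO against control held under 23 of 26 alternatives, with WT only as control at 2 (Slc2a1 lost), title number 2 alone at 1 and number 2 with median-of-ratios scaling, added after seeing the data, at 0. Leaving out single libraries left it at 3 in each case. No member fell in that comparison, except 1, Slc2a5, with median-of-ratios scaling, without KO replicate 6 and with a replicate block, so that leaving out single libraries gave 0 to 1. For KO title number 1 the count that fell was 1, but 2 with median-of-ratios scaling (Slc2a5 and Slc2a3). It was 0 with quantile normalization and 0 to 1 when single libraries were left out. For KO title number 2 the count that rose was 3, but 1 with no filter on low values, 1 with median-of-ratios scaling, 2 with quantile normalization (Slc16a1 and Slc2a3) and 1 to 3 when single libraries were left out, with 1 without KO replicate 5. The cause was not tested.

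The log2 ratio of Slc2a3 to Slc2a1 was weaker with WT only as control (-0.76, exact p = 0.0714) and shrank to -0.46 with title number 2 only (exact p = 0.0357), and that of Emb to Bsg was weaker with title number 2 only (0.65, exact p = 0.0595). The ratio of Slc16a3 to Slc16a1 ranged over -0.57 to -0.30 when single libraries were left out, and passed without WT replicate 3 (-0.56, exact p = 0.0433). Of 234 member alternatives 225 kept their side of the threshold and no call was reversed, and 11 differences that were not called changed sign.

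Same-numbered replicates do not pair the libraries: over 10 such pairs, the correlation of their deviations was -0.0835 to 0.126, and 1 was over 0.1. That pair was KO replicate 1 with Het replicate 1, the only control of title number 1. Het replicate 1 was at 0.126, 0.1095 and 0.114 with KO replicates 1 to 3, of its own number. With KO replicates 4 to 6, of number 2, it was at -0.1304, -0.129 and -0.0961. Pairs within number 2 ranged from -0.114 (Het replicate 2 with WT replicate 3) to 0.1804 (Het replicate 2 with WT replicate 1). Whether title number shaped these values was not tested. With the replicate block Slc16a1 was at 0.76 (adjusted p = 0.00171), Emb at 1.25 (adjusted p = 0.000365) and Slc2a1 at 1.01 (adjusted p = 0.00661), and Slc2a5 fell (-0.25, adjusted p = 0.0174). Replicate numbers 5 and 6 occur only in KO, so with the block the KO difference rested on KO replicates 1 to 4. Of these, replicates 1 to 3 have title number 1. Depth limits Slc2a1 and Slc16a3 most, with as few as 40 and 72 reads in a library.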
